A study of Mus musculus with 12 samples.

Results

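The 10 genes described here are the transcription factors and induced feedback regulators of the integrated stress response: Atf4, Atf3, Atf5, Ddit3 (which encodes CHOP), Cebpb and Cebpg on the side of the factors, and Trib3, Chac1, Sesn2 and Ddit4 on the side of the feedback and effector genes. They were taken by symbol from a table of 22416 genes, all 10 were found, and all 10 were among the 13229 genes that passed a filter on low counts. The RNA-seq libraries came from mouse embryonic stem cells in 4 groups of 3 libraries: knock-in cells (KI, eIF2α A/A) in LIF, wild-type cells (WT, eIF2α +/+) in LIF, KI cells in LIF/2i and WT cells in LIF/2i. In KI cells both copies of eIF2α, the subunit of the translation initiation factor eIF2 that stress kinases phosphorylate, carry alanine in place of the phosphorylated serine. LIF is leukaemia inhibitory factor, which holds mouse embryonic stem cells undifferentiated, and 2i is the MEK inhibitor PD0325901 with the GSK3 inhibitor CHIR99021. Every group spent 6 days in its medium, and the base of the medium, with serum replacement, non-essential amino acids, pyruvate, a glutamine dipeptide and β-mercaptoethanol, was common to all 4. The labels name no clone or parental line for either genotype. The study asked how phosphorylation of eIF2α controls the naive state of pluripotency. Here that becomes the question of how the genes downstream of this phosphorylation stood in each genotype and medium.

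As background, phosphorylated eIF2 slows general protein synthesis while short reading frames ahead of the Atf4 coding sequence let the ATF4 protein be made. ATF4 is a bZIP transcription factor that pairs with C/EBP proteins on composite C/EBP-ATF sites, called CARE or amino acid response elements, and raises amino acid synthesis and transport genes together with most of the genes in this group. Some of those genes act back on the response, and Atf5 and Ddit3 are themselves under translational control of the same kind. The RNA levels reported here say nothing of how much protein was made from them.

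The clearest result was in WT cells: 5 of the 10 genes (Atf4, Atf5, Trib3, Chac1 and Cebpb) were higher in LIF than in LIF/2i, and none was lower. Over all genes 6.3% were called higher there. The count of 5 became 3 to 5 when 1 library was left out. In KI cells Cebpb was the 1 gene of the 10 that passed the same test, near the 4.05% of all genes called higher. A fit over the KI libraries alone that paired replicates by number was added after the data were seen. In it Trib3 and Ddit4 passed as well, with 8.4% of all genes called higher. By the same test no gene differed between the genotypes in its response to the medium after adjustment. In LIF, 9 of the 10 genes had a lower fitted level in KI than in WT cells, by 6.04-fold for Chac1, 2.79-fold for Atf5 and 2.15-fold for Trib3, but none passed the test after adjustment. In LIF/2i these 3 genes had overlapping levels in the 2 genotypes. Sesn2 and Ddit4 had no KI sample as high as any WT sample there, as did 11% of all genes, and neither passed the test. Levels are CPM, counts scaled to a common library size with TMM factors, means are given with the SD over samples, fold changes are on the log2 scale with their standard error (SE), and a gene was called when its p from edgeR's quasi-likelihood test, adjusted by Benjamini-Hochberg over all 13229 genes, was under 0.05.

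Libraries held 2307219 to 9713857 counts, fewest in KI cells in LIF, where 3 counts in a library were worth up to 1.27 CPM. The counts of replicates 1 and 3 of WT LIF differed by less than their sampling noise (chi-square per degree of freedom 0.858), and the pair entered as 1 sample, its mean, so that WT LIF has n = 2 and each other group n = 3. The labels do not say whether replicates were separate cultures, so the p-values cover only the spread among the samples at hand, part or all of which may be technical. KI replicate 1 stood apart from KI replicates 2 and 3 in both media. Its Y-linked transcripts (Ddx3y, Eif2s3y, Uty and Kdm5d) summed to 36.7 CPM in LIF and 41.6 CPM in LIF/2i, against 1.43 to 3.9 CPM in the other KI libraries. The WT libraries differed too, with 77.6 CPM in LIF and 44.8 CPM in LIF/2i for replicate 2 and 156 to 261 CPM for replicates 1 and 3. All 10 stem cell markers were detected, with Pou5f1 at 753 to 1059 CPM and Sox2 at 490 to 659 CPM as group means. Others shifted between groups: in KI LIF/2i against WT LIF/2i Lin28a (3.17 on the log2 scale) and Utf1 (1.27) were called higher. In LIF against LIF/2i, Lin28a (KI 1.25, WT 4.14) and Utf1 (KI 1.38, WT 1.75) were called higher and Tfcp2l1 (KI -2.41, WT -1.98), Nanog (KI -1.32, WT -0.66) and Zfp42 (KI -0.78, WT -0.63) lower, with Esrrb (-0.67) lower in KI and Klf4 (-0.93) in WT cells. Counts per gene do not show the point mutation and so do not check the genotype. Eif2s1, which encodes eIF2α, had 37.0, 37.9 and 35.9 CPM in KI LIF, 32.6 and 28.5 CPM in WT LIF, 31.0, 44.0 and 57.5 CPM in KI LIF/2i and 27.9, 23.3 and 25.8 CPM in WT LIF/2i, and passed the test in neither medium.

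CARE motifs were looked for in the promoters, since the genes share ATF4 as a regulator. RefSeq promoter windows (GRCm38.p6, 250 bases before to 50 after a start) were at hand for all 10 genes, 11 windows in all because Atf5 has 2. The CARE core TGATGNAA, on either strand, was present in 3 of the 11 windows (27.3%), against 3.97% of all 32851 windows and 8 of the 28 windows of other amino acid genes under ATF4 (28.6%). It was found in Chac1, Trib3 and Atf3, in each case once and on the strand opposite to the gene. The 3 stretches are shown 5′ to 3′ on the gene's strand because these are the member promoters with the letters of the motif, which is in capitals.
Chac1: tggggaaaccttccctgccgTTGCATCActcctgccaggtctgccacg
Atf3: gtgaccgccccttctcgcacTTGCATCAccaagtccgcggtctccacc
Trib3: agcagcagattagctcaggtTTACATCA
The Chac1 stretch is chr2:119351029-119351076 on the plus strand, with the motif starting at position -193 from the RefSeq start. The Atf3 stretch is chr1:191183416-191183463 on the minus strand, with the motif at position -110. The Trib3 stretch is chr2:152344039-152344066 on the minus strand; its motif starts 15 bases after the RefSeq start, yet lies ahead of the start of the GENCODE M21 gene (152337422 to 152344032). Chac1 and Atf3 hold the same 8 letters, while Trib3 has another base at the motif's open position. The palindromic cAMP response element TGACGTCA, to which ATF and CREB factors bind, was in none of the 11 windows and in 1.79% of all windows, and the C/EBP palindrome TTGCGCAA in none and in 0.183%. Since only the CARE core was found, overlap among these 3 motifs could not arise in a member window. A match is a run of letters and not a shown site, and its absence says only that these letters are not in the window.

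Among the factors, Atf4 was by far the most abundant. Per kilobase of coding sequence its mean was 313 CPM in KI LIF, 371 in WT LIF, 312 in KI LIF/2i and 232 in WT LIF/2i, the first of the 10 in every group. In KI LIF the order by CPM per kilobase continued with Sesn2 (64.9), Ddit4 (64.2), Cebpg (36.7), Cebpb (25.6), Atf5 (19.4), Trib3 (19.3), Ddit3 (8.4), Chac1 (2.29) and Atf3 (1.07). In WT LIF it ran Ddit4 (104), Sesn2 (96.7), Atf5 (54.2), Trib3 (41.8), Cebpg (36.7), Cebpb (36.1), Ddit3 (16.0), Chac1 (14.8) and Atf3 (3.28). Atf5 and Trib3 thus stood below Cebpg in KI LIF and above it in WT LIF, on this scale of levels. Neighbours such as Sesn2 and Ddit4, or Atf5 and Trib3 in KI LIF, overlapped in their samples. Chac1 and Atf3 were near the floor of 3 counts in several libraries, and single counts weigh heavily there.

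**Figure D1:**
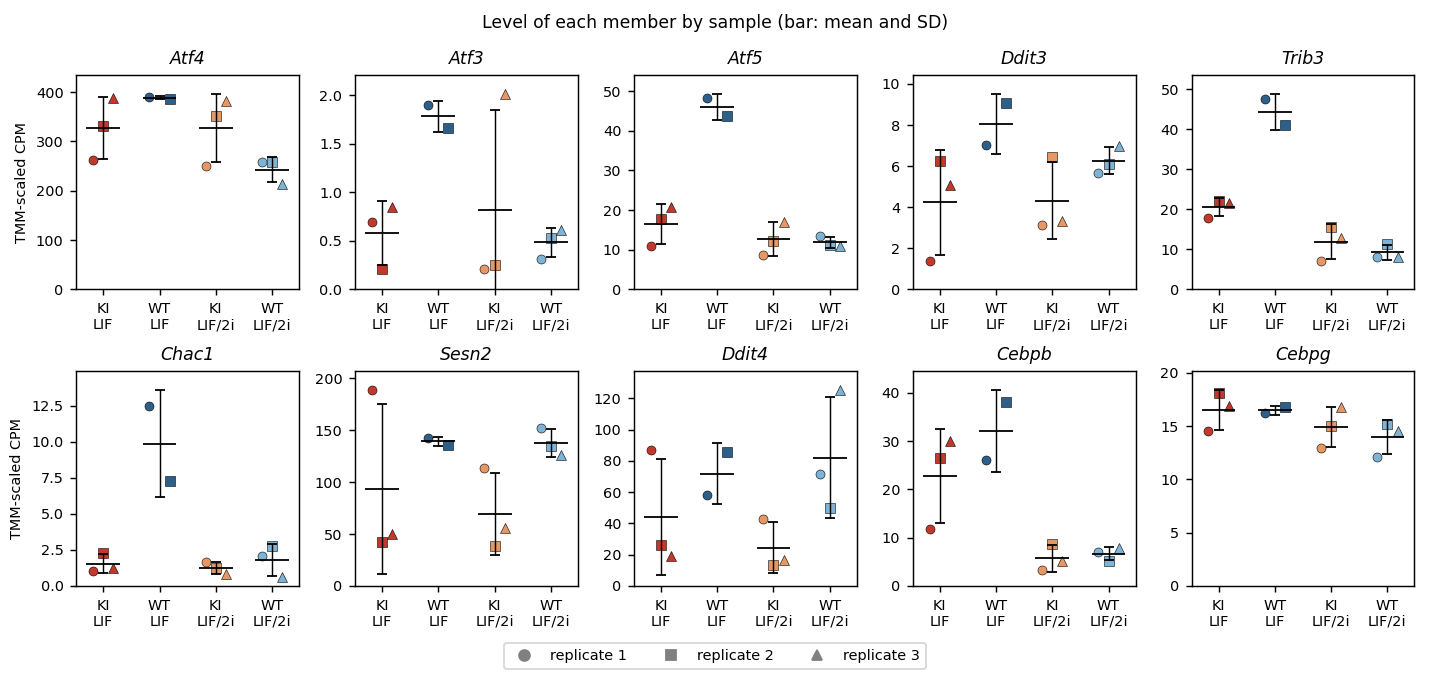
TMM-scaled CPM (vertical axis from 0, its own scale in each panel) of the 10 genes in KI LIF, WT LIF, KI LIF/2i and WT LIF/2i samples. Points are samples, shaped by replicate number, with WT LIF replicate 1 standing for the mean of replicates 1 and 3; horizontal lines are means and vertical bars SD. Atf5, Trib3 and Chac1 are highest in both WT LIF samples, and Sesn2 and Ddit4 are high in KI replicate 1 and low in KI replicates 2 and 3.

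The medium was compared first in WT cells, where eIF2α can be phosphorylated. Of the 10 genes 5 were called higher in LIF, against 6.3% of all genes tested. The median log2 difference of the 10 was 1.27, beside 0.01 over all genes. Atf4 (ENSMUSG00000042406, chromosome 15, 80255184 to 80257541, GRCm38), the hub of the group, had 391 CPM in the mean of WT LIF replicates 1 and 3 and 386 CPM in replicate 2, against 258, 258 and 213 CPM in WT LIF/2i. Both LIF values lay above every LIF/2i value, and the log2 fold change was 0.68 ± 0.20 (adjusted p = 0.0426). This call was close to the threshold: over 22 alternatives its adjusted p lay between 0.00913 and 0.181, and it was lost in 7 of them, each leaving out libraries.

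Atf5 (ENSMUSG00000038539, chromosome 7, 44812256 to 44816658), an ATF4 relative whose RNA and translation both rise in the stress response, had 48.3 and 43.8 CPM in WT LIF, against 13.4, 11.3 and 10.9 CPM in WT LIF/2i. Its log2 fold change was 1.95 ± 0.30 (adjusted p = 0.00235), or 3.85-fold. Trib3 (ENSMUSG00000032715, chromosome 2, 152337422 to 152344032) encodes a pseudokinase that binds ATF4 and CHOP and dampens them. It had 47.5 and 41.2 CPM in WT LIF, against 8.21, 11.4 and 8.2 CPM in WT LIF/2i, a log2 fold change of 2.24 ± 0.31 (adjusted p = 0.00126), or 4.73-fold. For both genes the groups were far apart, and both stayed called under all 22 alternatives tried. Their centred log2 levels differed by 0.28 on average over the 11 samples, and among all pairs of members only Atf4 and Cebpg, which both vary little, were closer (0.20).

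Chac1 (ENSMUSG00000027313, chromosome 2, 119351229 to 119354381), which encodes an enzyme that cleaves glutathione, had 12.5 and 7.27 CPM in WT LIF, against 2.05, 2.79 and 0.61 CPM in WT LIF/2i. These rest on 78, 48 and 80 counts in WT LIF replicates 1, 2 and 3 and on 13, 21 and 2 counts in WT LIF/2i. The log2 fold change was 2.33 ± 0.52 (adjusted p = 0.0124), and the ratio of summed counts was 4.68 with an exact interval of 3.21 to 6.98 (95%, counting error only). Without WT LIF replicates 1 and 3 the call was lost.

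Cebpb (ENSMUSG00000056501, chromosome 2, 167688915 to 167690418), a C/EBP factor that can pair with ATF4, had 26.1 and 38.0 CPM in WT LIF, against 6.94, 5.19 and 7.9 CPM in WT LIF/2i. It was higher by 2.28 ± 0.44 on the log2 scale (adjusted p = 0.0063) and lost its call without WT LIF replicate 2. The other C/EBP member, Cebpg (ENSMUSG00000056216, chromosome 7, 35046422 to 35056573), a short C/EBP protein that lacks an activation domain and pairs with ATF4, was the flattest of the 10. Its levels ran between 12.1 and 18.1 CPM in all 11 samples, and its medium difference in WT cells was 0.24 ± 0.23 (adjusted p = 0.555).

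Ddit3 (ENSMUSG00000025408, chromosome 10, 127290774 to 127296288), whose product CHOP drives cell death genes under lasting stress, was low in every group. It had 7.04 and 9.09 CPM in WT LIF, against 5.68, 6.12 and 6.99 CPM in WT LIF/2i, a log2 difference of 0.37 ± 0.48 that did not pass (adjusted p = 0.682). Atf3 (ENSMUSG00000026628, chromosome 1, 191170296 to 191183340), an early bZIP repressor of the response, was at 1.9 and 1.67 CPM in WT LIF, against 0.32, 0.53 and 0.61 CPM in WT LIF/2i. Its summed counts had a ratio of 3.81 (exact interval 1.65 to 9.86, counting error only), and the fitted difference of 1.87 ± 0.88 did not pass (adjusted p = 0.192). Sesn2 and Ddit4 differed between the media in WT cells by 0.01 ± 0.55 and -0.18 ± 0.61, with overlapping samples. In total 8 of the 10 genes had both LIF values above all LIF/2i values in WT cells, where 24.2% of all genes did. Of these, Atf3 reached a count of 10 only in the WT LIF libraries and in KI LIF/2i replicate 3. Its passing of the filter on low counts thus leaned on the group where it was high, which limits what its place in this count can show. With all 12 libraries taken separately Ddit3 overlapped, since in WT LIF replicate 1 (6.13 CPM) it lay under WT LIF/2i replicate 3 (6.99 CPM).

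Genes that mark other cell types also stood higher in WT LIF than in WT LIF/2i. Trophectoderm markers (8 genes) summed to 339 to 428 CPM in WT LIF and 130 to 156 CPM in WT LIF/2i, with Krt8 (4.23), Krt18 (4.11) and Hand1 (6.42) called higher, and their defining factors Cdx2 and Elf5 averaged 1.31 and 0.31 CPM in WT LIF. Primitive endoderm markers (11 genes) summed to 854 to 1069 CPM in WT LIF and 352 to 535 CPM in WT LIF/2i, with Lamb1 (1.81) and Lama1 (1.49) called, while Sox17, Sox7 and Foxa2 averaged at most 2.21 CPM in WT LIF. Fibroblast markers (10 genes) had overlapping sums of 143 to 690 CPM in WT LIF and 118 to 378 CPM in WT LIF/2i. Col1a1 (5.55), Col1a2 (8.16), Fbn1 (1.20) and Col3a1, which had no count in WT LIF/2i, were called higher, and Dcn and Lum were at or near 0. Pdgfrb (-0.84) and Vim (-0.25) went the other way and were not called. Vim alone averaged 196 CPM in WT LIF and 233 CPM in WT LIF/2i, a large part of these sums. Several of these calls leaned on WT LIF replicate 2, where Col1a1, Col1a2, Col3a1, Krt8 and Krt18 had 169, 205, 8.18, 70.4 and 93.7 CPM. In the mean of replicates 1 and 3 they had 13.0, 7.43, 0.87, 15.3 and 27.0 CPM. Fbn1 did not, with 10.6 CPM in replicate 2 and 12.65 CPM in that mean. Of the formative and primed markers Dnmt3b (1.06), Dnmt3a (1.31), Otx2 (2.60) and Pou3f1 (2.24) were called higher and Sox3 (-1.81) lower. The part of such cells in the differences of Atf5, Trib3, Chac1 and Cebpb was not tested. In bulk RNA, fewer cells that express a gene and less RNA per cell cannot be told apart.

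In KI cells the same change of medium gave a different set of values. Cebpb was the 1 member of the 10 called higher in LIF, with 4.05% of all genes called higher. It had 11.8, 26.5 and 30.01 CPM in KI LIF, against 3.23, 8.7 and 5.2 CPM in KI LIF/2i, and a log2 fold change of 1.99 ± 0.41 (adjusted p = 0.0114), close to its value in WT cells. Every LIF value exceeded every LIF/2i value, although KI LIF replicate 1 was well under the others, and the call was lost without KI LIF replicate 2 or replicate 3. Trib3 had 17.98, 22.1 and 21.6 CPM in KI LIF, against 7.1, 15.7 and 12.9 CPM in KI LIF/2i, also without overlap. Its difference of 0.80 ± 0.28 did not pass (adjusted p = 0.107). Trib3 and Cebpb were the 2 members without overlap, beside 13.3% of all genes in this direction. Beside these values, trophectoderm markers summed to 215 to 247 CPM in KI LIF and 93.4 to 221 CPM in KI LIF/2i, with Hand1 (5.29) and Krt8 (1.99) called higher. Of the 6 tested, 4 had a fitted difference above 0 and 2 below 0. Primitive endoderm markers summed to 600 to 660 CPM in KI LIF and 349 to 400 CPM in KI LIF/2i, with Lamb1 called (1.91). Of the 9 tested, 6 were above 0 and 3 below 0. Fibroblast markers summed to 259 to 564 CPM in KI LIF and 119 to 479 CPM in KI LIF/2i, with Col1a2 (5.26) and Col1a1 (2.82) called. Of the 7 tested, 6 were above 0 and 1 below 0. Formative and primed markers summed to 867 to 1119 CPM in KI LIF and 207 to 299 CPM in KI LIF/2i, with Pou3f1 (4.56), Otx2 (2.99), Dnmt3a (2.30) and Dnmt3b (1.47) called higher. The part of any of these markers in the result was not tested.

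Atf5 had 11.1, 17.7 and 20.7 CPM in KI LIF, against 8.76, 12.3 and 17.1 CPM in KI LIF/2i. The ranges overlapped, and the difference was 0.38 ± 0.29 (adjusted p = 0.468). Chac1 had 1.04, 2.29 and 1.27 CPM in KI LIF, from 3, 11 and 3 counts, against 1.67, 1.24 and 0.84 CPM in KI LIF/2i, with a ratio of summed counts of 1.29 (exact interval 0.668 to 2.4, counting error only). Atf4 averaged 327 ± 62.5 CPM in KI LIF and 327 ± 69.0 CPM in KI LIF/2i, a log2 difference of 0.0007 ± 0.18 with a 95% interval of -0.39 to 0.39. The median difference of the 10 genes was 0.36, beside -0.03 over all genes.

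In KI cells the replicate numbers matched across the media, for replicate 3 only narrowly (correlation 0.264, against 0.245 with another number). A fit with the replicate as a block, added after the data were seen, is therefore given beside these values. In that fit, over the 6 KI libraries alone, 3 of the 10 genes were called higher in LIF, where 8.4% of all 12072 genes tested were: Cebpb, Trib3 at 0.85 (adjusted p = 0.0367; 0.0367 to 0.272 over its alternatives) and Ddit4 at 0.79 (adjusted p = 0.0213; 0.0213 to 0.943 over its alternatives). Each KI replicate had a higher Ddit4 level in LIF than in LIF/2i, with 86.8, 26.0 and 19.4 CPM against 43.1, 13.3 and 16.8 CPM for replicates 1, 2 and 3. Atf5 and Chac1 were not called in it. The planned replicate block over 12 libraries called Trib3 and Cebpb but not Ddit4, with 693 genes called higher in all.

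**Figure D2:**
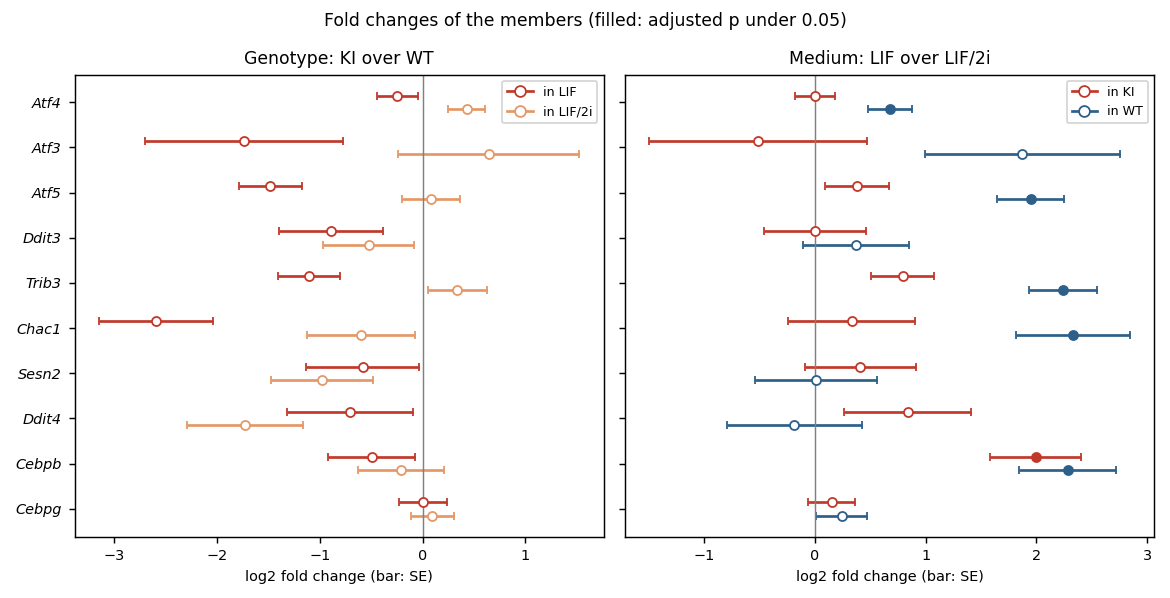
Log2 fold changes (horizontal axis) of the 10 genes with their SE as bars, for KI over WT in LIF and in LIF/2i (left) and for LIF over LIF/2i in KI and in WT cells (right). Filled points had an adjusted p under 0.05 in the fit without a replicate block. They are Atf4, Atf5, Trib3, Chac1 and Cebpb in WT cells and Cebpb in KI cells for the medium, and none for the genotype.

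KI was then compared with WT in LIF. edgeR called none of the 10 genes, and over all genes 0.129% were called lower. Atf5, Trib3 and Chac1 had an unadjusted p under 0.05, or 3 of 10, where 10.7% of all genes did. DESeq2 called Atf5 and Chac1, with 1.56% of all genes called, and limma-voom none. The median log2 difference of the 10 was -0.80, beside 0 over all genes, with 9 of 10 below 0. Atf5 had 11.1, 17.7 and 20.7 CPM in KI LIF, against 48.3 and 43.8 CPM in WT LIF, a difference of -1.48 ± 0.30 (adjusted p = 0.102; 0.00218 to 0.447 over 23 alternatives). Chac1 stood at 1.04, 2.29 and 1.27 CPM in KI LIF, against 12.5 and 7.27 CPM in WT LIF. Its difference was -2.59 ± 0.56 (adjusted p = 0.113; 0.0147 to 0.464 over 23 alternatives), and its summed counts had a ratio of 0.172 (exact interval 0.0972 to 0.287, counting error only). For neither gene did a KI sample reach a WT sample.

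Trib3 had 17.98, 22.1 and 21.6 CPM in KI LIF, against 47.5 and 41.2 CPM in WT LIF, and differed by -1.11 ± 0.30 (adjusted p = 0.206). Ddit3 had 1.38, 6.25 and 5.07 CPM in KI LIF, against 7.04 and 9.09 CPM in WT LIF, and Atf3 had 0.69, 0.21 and 0.85 CPM in KI LIF, against 1.9 and 1.67 CPM in WT LIF. Their differences were -0.89 ± 0.50 for Ddit3 and -1.74 ± 0.96 for Atf3, both with an adjusted p above 0.5. In these 5 genes all KI values lay below both WT values, where 15.9% of all genes did so. Atf3 is among them, although its passing of the filter on low counts leaned on WT LIF. For Ddit3 the lack of overlap rests on the mean of WT LIF replicates 1 and 3. Replicate 1 alone had 6.13 CPM, under the 6.25 CPM of KI LIF replicate 2, so that with 12 libraries Ddit3 overlapped. Atf4 itself had 263, 331 and 388 CPM in KI LIF, against 391 and 386 CPM in WT LIF. Its groups overlapped, and its difference was -0.25 ± 0.20 with a 95% interval of -0.68 to 0.19. Cebpb averaged 22.7 ± 9.68 CPM in KI LIF and 32.0 ± 8.43 CPM in WT LIF (-0.49 ± 0.42), and Cebpg 16.5 ± 1.83 CPM in KI LIF and 16.5 ± 0.42 CPM in WT LIF. Markers of other cell types differed as well: trophectoderm markers summed to 215 to 247 CPM in KI LIF and 339 to 428 CPM in WT LIF, and primitive endoderm markers to 600 to 660 CPM in KI LIF and 854 to 1069 CPM in WT LIF, with Lama1 called lower (-1.79, adjusted p = 0.0222). Formative and primed markers went the other way in sum, with 867 to 1119 CPM in KI LIF and 489 to 550 CPM in WT LIF. None of them was called, and 5 of the 6 tested had a fitted level above WT. Dnmt3a averaged 528 CPM in KI LIF and 201 CPM in WT LIF. Otx2 (19.5 CPM in KI LIF, 21.6 CPM in WT LIF) and Fgf5 (0.91 and 1.20 CPM) averaged less in KI LIF. The part of these markers in the lower levels of Atf5, Chac1 and Trib3 was not tested.

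How the genes were called in LIF depended on which KI libraries were used. Without KI replicate 1 in both media, an alternative added after the data were seen, 4 of the 10 were called lower in KI LIF: Atf5 (-1.27), Trib3 (-1.02), Sesn2 (-1.61) and Ddit4 (-1.63), with 166 genes higher and 247 lower in all, 3.15% of those tested. Sesn2 and Ddit4 differed by -0.58 ± 0.55 and -0.71 ± 0.62 with that replicate in.

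In LIF/2i, edgeR, DESeq2 and limma-voom called none of the 10 genes, edgeR called 2.21% of all genes in either direction, and by edgeR Atf4 and Ddit4 had an unadjusted p under 0.05, or 2 of 10, where 20.5% of all genes did. Ddit4 (ENSMUSG00000020108, chromosome 10, 59949669 to 59951834), the mTORC1 inhibitor REDD1, had 43.1, 13.3 and 16.8 CPM in KI LIF/2i, against 71.3, 50.0 and 125 CPM in WT LIF/2i. The difference was -1.73 ± 0.57 (adjusted p = 0.123). Sesn2 (ENSMUSG00000028893, chromosome 4, 132492032 to 132510501), the leucine sensor that restrains mTORC1, had 114, 38.9 and 55.8 CPM in KI LIF/2i, against 152, 135 and 126 CPM in WT LIF/2i, a difference of -0.98 ± 0.50 (adjusted p = 0.284). In these 2 genes every KI value was under every WT value, beside 11% of all genes. No member had every KI value above every WT value, beside 11.8% of all genes.

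Atf4 had 249, 351 and 381 CPM in KI LIF/2i, against 258, 258 and 213 CPM in WT LIF/2i, and differed by 0.43 ± 0.18 (adjusted p = 0.205). Atf5 averaged 12.7 ± 4.18 CPM in KI LIF/2i and 11.9 ± 1.33 CPM in WT LIF/2i, and Trib3 11.9 ± 4.38 CPM in KI LIF/2i and 9.28 ± 1.87 CPM in WT LIF/2i. The 95% intervals of their log2 differences were -0.53 to 0.70 for Atf5 and -0.29 to 0.96 for Trib3. Chac1 had a ratio of summed counts of 0.626 between KI LIF/2i and WT LIF/2i (exact interval 0.374 to 1.04, counting error only). Ddit3 had 3.13, 6.47 and 3.35 CPM in KI LIF/2i, against 5.68, 6.12 and 6.99 CPM in WT LIF/2i (-0.52 ± 0.44). Atf3 had 0.21, 0.25 and 2.01 CPM in KI LIF/2i, against 0.32, 0.53 and 0.61 CPM in WT LIF/2i, so that its KI mean rests on replicate 3. Cebpb and Cebpg differed by -0.21 ± 0.42 and 0.09 ± 0.21. Without KI replicate 1 in both media Atf4 was called higher (0.58) and Sesn2 (-1.56) and Ddit4 (-2.45) lower in KI LIF/2i, with 688 genes higher and 879 lower in all, 11.9% of those tested.

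Sesn2 and Ddit4 were closer to each other than to any other member. Their centred log2 levels differed by 0.36 on average over the 11 samples. From the other members Ddit4 differed by 0.88 (Ddit3) to 1.3 (Cebpb) and Sesn2 by 0.76 (Atf3) to 1.26 (Cebpb). Distances among those other members reached 0.94 (Ddit3 and Cebpb), so the ranges overlap. Sesn2 and Ddit4 are also known as targets outside ATF4, Sesn2 of p53 and Ddit4 of p53 and hypoxia. In KI LIF, Sesn2 had 188 CPM in replicate 1 and 41.9 and 49.9 CPM in replicates 2 and 3, against 142 and 136 CPM in WT LIF, so that the KI values lay on both sides of WT. Ddit4 in KI LIF had 86.8 CPM in replicate 1 and 26.0 and 19.4 CPM in replicates 2 and 3, against 58.0 and 85.6 CPM in WT LIF. A list of 13 p53 targets that does not hold these genes had the same split: its median, as a log2 difference from the WT LIF/2i mean, was 0.28, -1.09 and -1.34 in KI LIF replicates 1, 2 and 3, -0.55 and -0.10 in WT LIF, -0.16, -1.13 and -0.63 in KI LIF/2i and -0.03 to -0.002 in WT LIF/2i. All 13 had a fitted level below WT in KI LIF/2i with a median of -0.69, and none was called. Between the media, Cdkn1a, the cell cycle inhibitor p21, was called lower in LIF (KI -1.69, WT -1.89), and Perp, a junction protein gene, higher in KI LIF (1.88).

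Hypoxia targets (9 genes) also stood lower in KI LIF/2i, with a median of -1.18, all 9 below 0, and Egln3 (-2.34, adjusted p = 0.0246), an oxygen-sensing hydroxylase, and Slc2a1 (-1.01, adjusted p = 0.0406), a glucose transporter, called. For LIF against LIF/2i most of the list lay below 0. In WT cells 8 of the 9 did (median -0.70), and in KI cells 5 of the 9 (median -0.07). Pdk1, a kinase that holds back pyruvate oxidation, went against its list and was called higher in LIF (KI 2.21, WT 1.40). The part of p53, of oxygen supply or of KI replicate 1 in the levels of Sesn2 and Ddit4 was not tested.

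**Figure D3:**
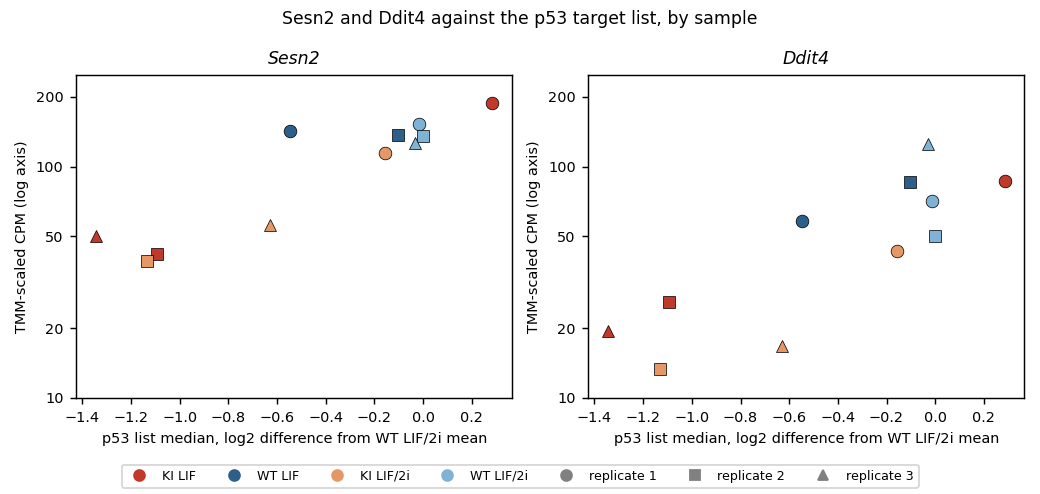
Sesn2 (left) and Ddit4 (right) in TMM-scaled CPM on a log axis against the median of 13 p53 targets in the same sample, as a log2 difference from the WT LIF/2i mean. Colours are groups and shapes replicate numbers, with WT LIF replicate 1 standing for the mean of replicates 1 and 3. KI replicates 2 and 3 lie at the lower left in both media and KI replicate 1 lies nearer to the WT samples.

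The difference between the 2 genotype effects, KI over WT in LIF minus KI over WT in LIF/2i, was tested as the interaction. None of the 10 genes was called by edgeR, DESeq2 or limma-voom, and edgeR called 0% of all genes (5.99% had an unadjusted p under 0.05), as limma-voom did. By each of the 3 tools Atf4, Atf5, Trib3 and Chac1 had an unadjusted p under 0.05. In edgeR their interactions were -0.68 ± 0.27 for Atf4, -1.56 ± 0.42 for Atf5, -1.44 ± 0.42 for Trib3 and -2.00 ± 0.78 for Chac1, with adjusted p-values of 0.816, 0.695, 0.708 and 0.809. All 4 were negative, the direction of a smaller excess of LIF over LIF/2i in KI than in WT cells, but after adjustment a difference between the genotypes in their response to the medium was not shown. DESeq2 called 9 genes higher and 13 lower over the whole table.

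The other targets of ATF4 were read from lists. Of 31 tested amino acid genes under ATF4 (synthetic enzymes, transporters and tRNA synthetases), 15 were called higher and none lower in WT LIF against WT LIF/2i, with a median of 0.78. Over all genes 6.3% were called higher. The list genes with the smallest p were Psat1 (1.67), which acts in serine synthesis, Nars (1.06), Sars (1.14) and Cars (0.88), which charge tRNAs, Slc7a5 (0.92), a leucine transporter, and Psph (1.20), also of serine synthesis. In KI LIF against KI LIF/2i none of the list was called higher and 2 were lower, near the 5.02% of all genes called lower, the median being 0.06. The lower ones were Asns (-2.31, adjusted p = 4.68e-04), asparagine synthetase, and Slc7a1 (-0.87, adjusted p = 0.0487), an arginine and lysine transporter. In KI LIF against WT LIF 4 were called lower, Pck2 (-1.80), Asns (-1.70), Psat1 (-1.29) and Psph (-1.28), none was higher, and the median was -0.69 with 28 of 31 below 0. Over all genes 0.129% were called lower. In KI LIF/2i against WT LIF/2i Slc7a3, a transporter of basic amino acids, was called higher (1.33, adjusted p = 0.0366) and none lower. No interaction was called, and 30 of the 31 were below 0.

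Asns was 1 of 5 of the 31 below 0 for LIF against LIF/2i in WT cells. It had 292, 198 and 180 CPM in KI LIF, 933 and 512 CPM in WT LIF, 1384, 962 and 963 CPM in KI LIF/2i and 1215, 1301 and 1182 CPM in WT LIF/2i. Both WT LIF values were thus below all WT LIF/2i values, while Atf5, Trib3 and Chac1 ran the other way, and the WT difference of -0.77 ± 0.27 did not pass (adjusted p = 0.0827). Pck2, the mitochondrial enzyme that makes phosphoenolpyruvate, had 26.6, 35.0 and 30.01 CPM in KI LIF and 108 and 106 CPM in WT LIF, with no overlap.

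**Figure D4:**
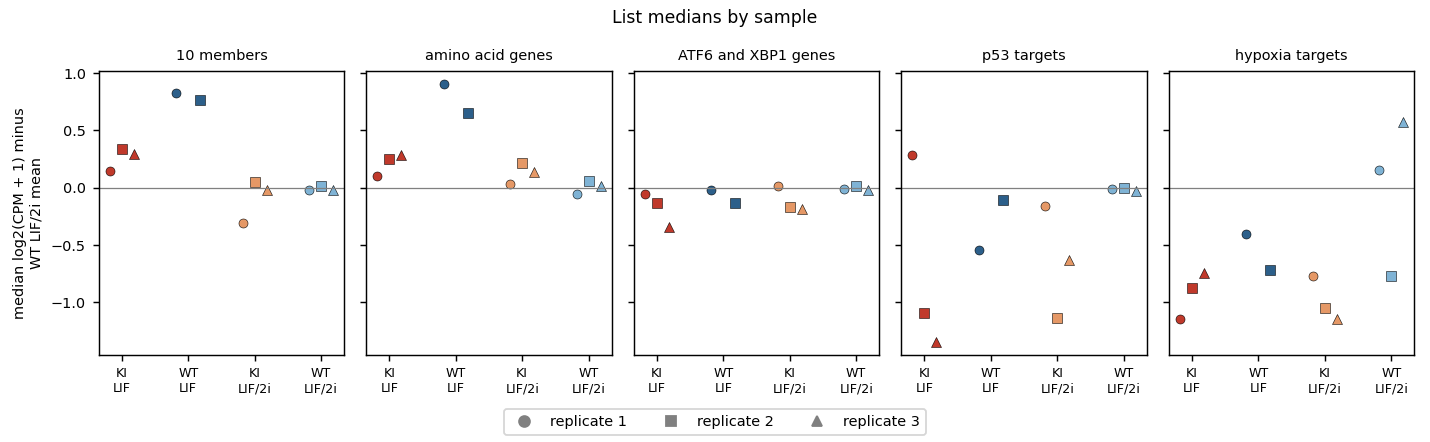
Median over each list of log2(CPM + 1) minus the WT LIF/2i mean (vertical axis) in KI LIF, WT LIF, KI LIF/2i and WT LIF/2i samples. The lists are the 10 genes, 31 tested amino acid genes under ATF4, 18 genes under ATF6 and XBP1, 13 p53 targets and 9 hypoxia targets. Points are samples, shaped by replicate, with WT LIF replicate 1 standing for the mean of replicates 1 and 3. The 10 genes and the amino acid genes stand at 0.65 to 0.91 in WT LIF and under 0.34 elsewhere, and the p53 targets split KI replicate 1 from KI replicates 2 and 3.

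Other stress-induced regulators under ATF4 and CHOP (12 of 13 tested) had few calls. In WT cells the cell death gene Bcl2l11 was called higher in LIF (1.49, adjusted p = 0.00364) and the oxidoreductase Ero1l lower (-0.92, adjusted p = 0.0273), with a median of 0.25. In KI cells Bcl2l11 was called higher (1.70, adjusted p = 0.0017) and none lower. Between genotypes none was called in either medium, while 11 of 12 were below 0 in LIF and 10 of 12 in LIF/2i, with medians of -0.54 and -0.73.

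The arm of the unfolded protein response under ATF6 and XBP1 (18 genes) stood close to the median of all genes. The endoplasmic reticulum protein gene Herpud1 was the 1 gene of the 18 called, higher in WT LIF than in WT LIF/2i (0.85, adjusted p = 0.0438). List medians were -0.07 for the medium in WT cells, -0.15 for the medium in KI cells, -0.10 for the genotype in LIF and -0.04 for the genotype in LIF/2i. In LIF against LIF/2i, the 14 genes for eIF2 kinases, phosphatase regulators and eIF2 and eIF2B subunits had 2 called, both eIF2B subunits and both lower in both genotypes. Eif2b5 differed by -1.22 ± 0.14 in KI cells (adjusted p = 6.43e-04) and by -1.18 ± 0.16 in WT cells (adjusted p = 0.00132), and Eif2b4 by -0.53 ± 0.14 in KI cells (adjusted p = 0.0316) and -0.57 ± 0.15 in WT cells (adjusted p = 0.0293).

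Among 21 tested bZIP factors outside the group, Fosl2 (3.05), Jun (2.28) and Junb (1.54), which form AP-1, were called higher and Atf7 (-0.77) lower in WT LIF against WT LIF/2i. In KI cells Cebpd (2.08, adjusted p = 0.0216), a close relative of Cebpb, was called higher in LIF and Nfe2l2 (-0.56, adjusted p = 0.03) lower. None was called between genotypes. The paralogues of the feedback genes (Trib1, Trib2, Chac2, Sesn1, Sesn3 and Ddit4l) had no call in any comparison, and their median for LIF against LIF/2i in WT cells was -0.44, opposite in sign to that of the 10 genes.

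The genes whose pattern over the 11 samples was most like that of 3 members were looked up among 10617 genes with a mean of at least 5 CPM, by the mean absolute difference of centred log2(CPM + 1) values. For Atf4 they were Ptpn12 (0.10), Mettl2 (0.10) and Yars (0.11), the last of which encodes a tRNA synthetase. For Ddit3 they were B4galt1 (0.19), Litaf (0.21) and Mtch1 (0.21), and for Trib3 they were Slc6a9 (0.27), a glycine transporter, Pex6 (0.28) and Atf5 (0.28). Atf4 varies little (0.29 on average around its mean), so a small difference is easily reached for it. Trib3 varies more (0.68), and among its nearest were 1 other member of the group and 1 gene of the amino acid list.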

How the data were processed

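The authors deposited 1 table of raw counts per gene, without normalization; per the file headers only the coding part of 1 transcript was counted for each gene, which leaves out reads in untranslated regions such as the one ahead of the Atf4 coding sequence. Per the labels' protocols, RNA came from the supernatant of a lysate made after cycloheximide washes, was depleted of ribosomal RNA, fragmented and carried through ribosome profiling library steps. Bowtie 1.3.0, cutadapt 3.4 and UMI-tools 1.0.1 are listed without roles, per the submitters' processing notes; not given in the sources used here are the genome build, annotation, counting tool and use of strand, so genes that overlap or share sequence with copies are uncertain. Gene coordinates are from GENCODE M21 (GRCm38), matched by transcript identifier for 22155 of the 22416 genes, and promoter sequences from RefSeq (GRCm38.p6).

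The 4483 genes without a count and others with few were removed by filterByExpr (minimum count 10). edgeR 4.0.16 in R 4.3.3 fitted 1 mean per group over 11 samples, with TMM factors of 0.946 to 1.04, robust dispersions and two-sided quasi-likelihood tests; its biological coefficient of variation was 0.234. The plan had assumed 12 samples. The fit was tested on simulated data with known changes. Intervals of ratios are exact binomial intervals on summed counts.

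Genes were named by this rule: all 10 members; in each other list every gene called in a comparison, at most 6 a list and comparison by smallest p; and 3 nearest patterns each for Atf4, Ddit3 and Trib3. Asns values, Eif2s1, Y-linked genes and markers given beside results were picked once their values had been seen. The members and lists were chosen with earlier results of these data known.

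Replicate numbers were tested for pairing by the correlation of deviations from group means. Between KI samples of the 2 media it was 0.54, 0.43 and 0.26 for replicates 1, 2 and 3 (highest with another number -0.23, 0.079 and 0.245), so they were treated as paired, from the data and not the labels. Each of the other comparisons had a pair under 0.1. Alternatives were DESeq2 1.42.0, limma-voom (limma 3.58.1), DESeq2 size factors, library totals, no filter, a minimum count of 30, only the groups compared, all 12 libraries separately, a replicate block, and leaving out libraries.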

Additional observations from a re-analysis of the deposited data

How the results depend on the processing

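Of 1129 alternative values of the members' 50 fold changes, 1041 kept their direction and their side of the threshold, 11 lost and 19 gained a call, and 58 changed sign, all of them of fold changes that were not called. For KI against WT in LIF/2i the count of members called was 0 in the fit reported, 0 to 1 when 1 library was left out and 3 without KI replicate 1 in both media. For KI against WT in LIF it was 0 in the fit reported, 2 by DESeq2, 2 with 12 libraries, 3 with the replicate block, 0 to 1 when 1 library was left out and 4 without KI replicate 1 in both media. For LIF against LIF/2i in WT cells it was 5, with 3 to 5 when 1 library was left out and 3 without WT LIF replicates 1 and 3. In KI cells it was 1, with 2 for the replicate block over 12 libraries, 3 for the block over KI libraries alone and 0 to 1 when 1 library was left out. Over all genes, KI against WT in LIF had 2 higher and 17 lower in the fit reported, 86 and 120 by DESeq2, 57 and 85 with 12 libraries, and 0 and 1 without KI LIF replicate 2 or 3. In LIF/2i it had 129 higher and 164 lower in the fit reported, 405 and 512 by DESeq2, 31 and 33 without WT LIF/2i replicate 1, and 474 and 527 without KI LIF/2i replicate 1.

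Values that changed sign for KI against WT in LIF/2i were Atf3 (-0.13) and Atf5 (-0.016) by limma-voom and Cebpb (0.090) without KI replicate 1 in both media. In LIF it was Cebpg without a filter (-0.0084), at a minimum count of 30 (-0.0088), with only the groups compared (-0.0074) and without WT LIF replicates 1 and 3 (-0.023). For LIF against LIF/2i in WT cells they were Sesn2 (-0.019) and Ddit4 (0.069) without WT LIF replicates 1 and 3. In KI cells they were Atf3 (0.26) and Ddit3 (-0.072) by limma-voom, Atf4 (-0.017) and Ddit3 (-0.013) without a filter, Ddit3 with the replicate block over 12 libraries (-0.047) or over KI libraries alone (-0.095), Atf4 (-0.0042) and Ddit3 (-0.0028) without WT LIF replicates 1 and 3, and Atf4 (-0.025) and Sesn2 (-0.048) without KI replicate 1 in both media. Without that replicate the interaction of Sesn2 was -0.050.

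When 1 library was left out, values that changed sign for KI against WT in LIF/2i ranged from -0.68 to 0.079 for Cebpb, -0.99 to 1.12 for Atf3, -0.19 to 0.27 for Atf5 and -0.019 to 0.17 for Cebpg, and in LIF from -0.085 to 0.089 for Cebpg. For LIF against LIF/2i in WT cells they ranged from -0.045 to 0.083 for Sesn2 and -0.49 to 0.24 for Ddit4. In KI cells they ranged from -0.16 to 0.14 for Atf4, -0.46 to 0.43 for Ddit3, -1.01 to 1.11 for Atf3, -0.61 to 0.98 for Sesn2, -0.094 to 1.56 for Ddit4 and -0.16 to 0.61 for Chac1. For the interaction they ranged from -0.83 to 0.070 for Ddit3, -0.59 to 0.19 for Cebpb, -0.17 to 0.010 for Cebpg and -0.63 to 0.98 for Sesn2. The cause of these changes was not tested. With the replicate block over 12 libraries the unpaired comparisons had 0 members called for KI against WT in LIF/2i and 5 for the medium in WT cells. Atf3 was not tested at a minimum count of 30, and depth limits it and Chac1 most: 3 counts were worth 0.313 to 1.27 CPM.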
